A study of Mus musculus with 4 samples.

Results

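Primordial germ cells, the embryonic precursors of eggs and sperm, are set aside from neighbouring somatic cells by a small group of regulators. The 10 genes described here are Prdm1, Prdm14, Tfap2c, Pou5f1, Nanog, Sall4, Dppa3, Dppa4, Lin28a and Kit. They were chosen by name, with earlier results of these data known. Each symbol matched 1 of the 53715 gene models in the count table. Each library was made from 1000 cells of C57BL/6 mice, enriched by magnetic sorting and labelled as E12.5 primordial germ cells. There were 2 libraries labelled Rif1_KO (Rif1 knockout, with no allele named) and 2 labelled WT (wild type). Smart-seq2, a full-length cDNA method for small cell numbers, was used for all 4 libraries. Whether the 2 libraries of a label came from different embryos is not stated, and p-values therefore cover only library-to-library spread, possibly technical. The sources used here give neither the sex of the embryos nor the surface marker used for sorting.

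In the mouse, BMP signals from neighbouring tissues induce Prdm1 and Prdm14 in a few epiblast cells. The transcriptional repressor encoded by Prdm1 (BLIMP1) silences somatic genes, PRDM14 restores pluripotency genes and drives epigenetic reprogramming, and AP-2 gamma, the product of Tfap2c, acts with them. Germ cells keep pluripotency factors such as Pou5f1 and Nanog while they migrate, and use the receptor Kit to respond to its ligand for survival and movement.

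The libraries held 12071903 and 14421298 counts under the label Rif1_KO (each pair of values is given as replicate 1, then replicate 2) and 12768932 and 11724630 counts under the label WT. Levels are in CPM, which is the count divided by each library's TMM-scaled total and multiplied by 1000000. Rif1 itself had 86.2 and 64.0 CPM in the libraries labelled Rif1_KO, against 43.7 and 4.73 CPM in those labelled WT, so Rif1 was not lower under the knockout label. Whether the deletion leaves most counted exons in place, or whether labels were exchanged, was not tested. Libraries are therefore named by label, and every direction below holds only as far as the labels do. Haemoglobin genes took 1.09% and 0.556% of counts under the label Rif1_KO, against 11.8% and 8.92% under the label WT. Across 15466 tested genes, edgeR's quasi-likelihood test called 2 lower and 0 higher under the label Rif1_KO (Benjamini-Hochberg adjusted p under 0.05). The 2 were the haemoglobin genes Hba-a1 and Hba-a2.

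The 10 regulators were scarce in 3 of the 4 libraries. Summed over the list, levels reached 37.4 and 34.9 CPM under the label Rif1_KO, against 34.6 and 237 CPM under the label WT. WT replicate 2 thus held most of the summed signal of the list, but 165 CPM of it came from Dppa3, and 5 of the 10 genes were highest there. The sum of WT replicate 1 was close to those of the libraries labelled Rif1_KO, though not gene by gene. Of that sum 19.9 CPM came from Prdm14, which had 0.452 and 0.106 CPM under the label Rif1_KO. Of 40 values (10 genes in 4 libraries), 16 rested on fewer than 10 counts and 5 on 3 counts or fewer. The defining germ cell markers were checked in the same way. The 11 genes of that list, 8 of them highest in WT replicate 2, summed to 17.03 and 11.9 CPM under the label Rif1_KO, against 27.0 and 315 CPM under the label WT. The germline helicase gene Ddx4 had 14 and 10 counts in the libraries labelled Rif1_KO, against 7 and 551 counts in those labelled WT. Dazl, whose protein binds RNA and licenses germ cells for gametogenesis, had 27 and 77 counts under the label Rif1_KO, against 141 and 1821 counts under the label WT. Only WT replicate 2 thus held the defining markers Ddx4 and Dazl at high levels, and Mael and Nanos2 had 8 counts or fewer in every library. Of the 315 CPM in WT replicate 2, Dazl gave 196 and Ddx4 59.2. Other markers went otherwise. Dnd1 had 85 and 19 counts under the label Rif1_KO, against 96 and 54 under the label WT. Tdrd1 had 46 and 12 counts under the label Rif1_KO, against 9 and 4 under the label WT. Of the 7 germ cell markers tested, edgeR called 0, and 2 (Dazl and Ddx4) were lower under the label Rif1_KO at an unadjusted p under 0.05. Over all tested genes 3.05% were lower at that level. In bulk libraries, fewer cells of a type and less RNA per cell cannot be told apart.

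**Figure D1:**
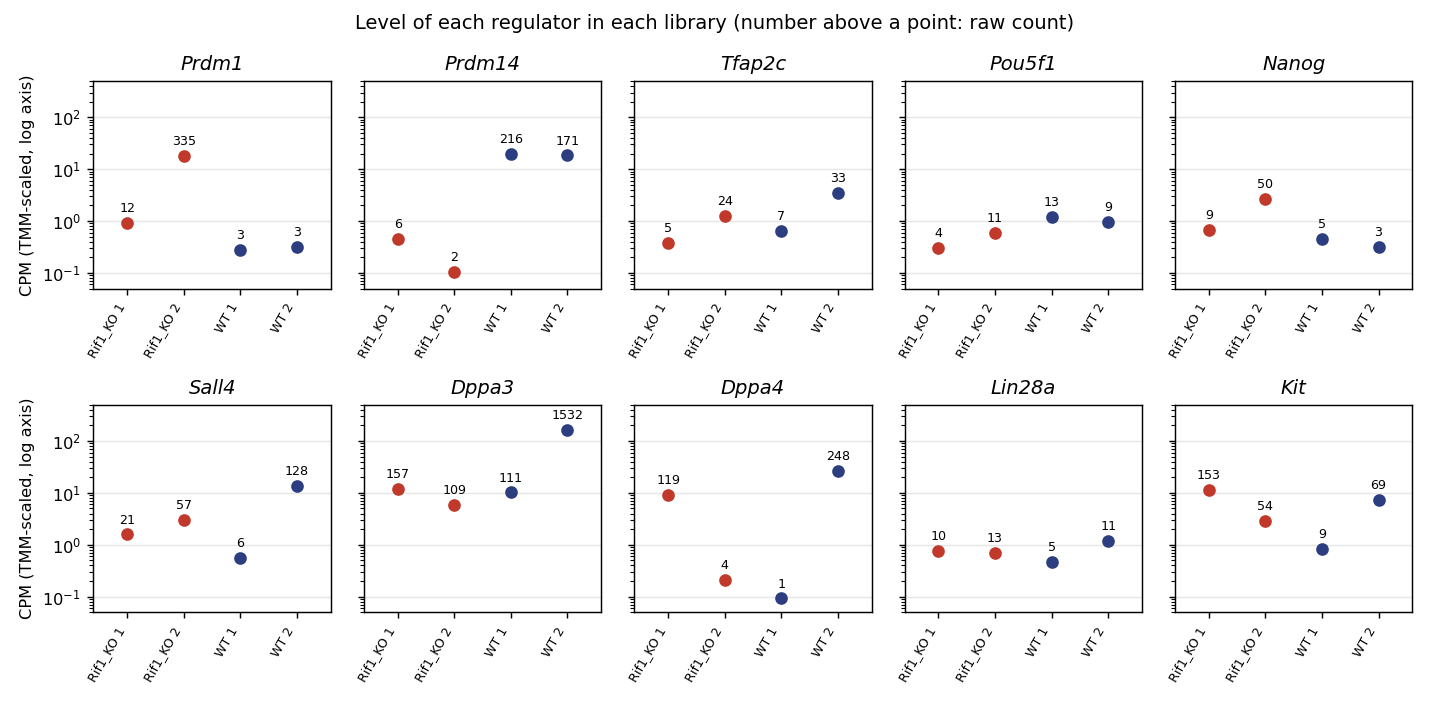
Level of each of the 10 regulators in each library, in CPM on a log axis, with the raw count above each point; libraries labelled Rif1_KO are red and those labelled WT are blue. Prdm14 lies near 20 CPM in both libraries labelled WT and below 1 CPM in both labelled Rif1_KO, while Dppa3, Dppa4, Sall4 and Tfap2c are highest in WT replicate 2 and Prdm1 and Nanog in Rif1_KO replicate 2.

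Promoter sequence was available for 5 of the 10 genes in the RefSeq table (GRCm38.p6, the assembly that mm10 names). It holds 250 bases before and 50 bases from each annotated transcription start. Windows of Nanog, Pou5f1 and Prdm1 are shown because these are the genes with promoter sequence whose CPM did not overlap between labels. Nanog and Pou5f1 have a further annotated start each, not shown. Capitals mark the cores of 4 kinds of binding site: the octamer core ATGCAAA bound by POU factors such as OCT4 (the Pou5f1 product), the SOX core ACAAT, the GC box GGGCGG and the AP-2 palindrome GCCNNNGGC, on either strand. No marked matches overlap in these windows. The windows are Nanog chr6:122707239-122707538 (plus strand), Pou5f1 chr17:35505782-35506081 (plus strand) and Prdm1 chr10:44458699-44458998 (minus strand).
Nanog: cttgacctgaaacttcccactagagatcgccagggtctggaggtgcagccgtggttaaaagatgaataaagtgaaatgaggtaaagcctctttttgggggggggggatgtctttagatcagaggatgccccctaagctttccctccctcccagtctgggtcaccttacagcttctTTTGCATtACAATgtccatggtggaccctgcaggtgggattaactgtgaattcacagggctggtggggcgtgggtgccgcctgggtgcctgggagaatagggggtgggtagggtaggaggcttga
Pou5f1: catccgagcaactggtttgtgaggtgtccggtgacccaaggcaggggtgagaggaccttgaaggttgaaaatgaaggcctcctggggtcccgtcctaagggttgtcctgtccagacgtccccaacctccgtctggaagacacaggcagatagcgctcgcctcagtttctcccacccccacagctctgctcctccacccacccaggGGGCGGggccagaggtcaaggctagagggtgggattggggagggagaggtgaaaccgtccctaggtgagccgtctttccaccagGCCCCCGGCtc
Prdm1: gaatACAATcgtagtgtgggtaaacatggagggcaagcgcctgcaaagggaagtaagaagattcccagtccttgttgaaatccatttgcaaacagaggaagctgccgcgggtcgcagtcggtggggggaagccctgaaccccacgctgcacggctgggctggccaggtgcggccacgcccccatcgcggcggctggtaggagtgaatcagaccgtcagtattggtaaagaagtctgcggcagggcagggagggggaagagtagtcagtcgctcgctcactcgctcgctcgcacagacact
The Nanog window held 1 octamer core, starting at -75 from the transcription start, and 1 SOX core starting at -67, with 1 base between them. An octamer core was found in 4.63% of 32851 promoter windows in the same table and a SOX core in 31% of them. The 2 cores in this order with 1 base between them stood in 8 windows, or 0.0244%, and overlapping windows of Nanog account for 2 of these. The Pou5f1 window held 1 GC box and 1 AP-2 palindrome, which occurred in 35.7% and 16.6% of windows, and the Prdm1 window 1 SOX core at -246. Kit and Lin28a windows had 69% and 63.3% G and C, against a median of 52.7% over all windows. Such matches describe the letters of these windows and are not binding sites measured in these cells.

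No regulator passed the edgeR test for a difference between the labels. Of the 10 genes, 8 passed the filter on low counts, and edgeR called 0 of these 8, against 0.0129% of tested genes called lower and 0% called higher. At an unadjusted p under 0.05, 2 of the 8 were lower under the label Rif1_KO (Prdm14 and Dppa3) and 1 was higher (Prdm1). Over all tested genes 3.05% were lower and 5.35% higher at that level. DESeq2, which gave Lin28a no adjusted p, called 1 regulator, Prdm14, lower, where it called 1.35% of genes lower and 2.31% higher. The median log2 fold change of the 8 tested regulators was -1.43, against -0.11 over all tested genes, and 6 of the 8 values were below 0. Without WT replicate 2 the median was 1.24, over 10 genes that then passed the filter, so its sign rests on that library. Pou5f1 and Nanog did not pass the filter and are given by their counts.

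Prdm14, one of the factors that start the germ cell programme, was the regulator whose labels stood furthest apart. It has 1 model (ENSMUSG00000042414.7, chromosome 1, 13113457 to 13127163, minus strand, mm10) that shares no exon with another gene. It had 6 and 2 counts in the libraries labelled Rif1_KO, against 216 and 171 counts in those labelled WT. These are 0.452 and 0.106 CPM under the label Rif1_KO (95% Clopper-Pearson intervals 0.166 to 0.984 and 0.0128 to 0.383), against 19.9 and 18.4 CPM under the label WT (17.3 to 22.7 and 15.7 to 21.4). Both libraries of each label lay together and the labels did not overlap. Such separation with lower values under the label Rif1_KO was seen for 18.4% of tested genes. The group means were 0.279 ± 0.245 CPM under the label Rif1_KO and 19.14 ± 1.07 CPM under the label WT (SD, n = 2 each). The log2 fold change was -6.08 (SE 1.65), with an edgeR adjusted p of 0.571 and a DESeq2 adjusted p of 4.08e-05, lower in 2 of 2 libraries. Over summed counts the ratio of Rif1_KO to WT was 0.013 (95% counting interval 0.00556 to 0.0258). With 1 library left out the log2 fold change ranged from -7.30 to -5.32, and the call depended on which library it was. The edgeR adjusted p was 0.86 without Rif1_KO replicate 1 and 0.969 without Rif1_KO replicate 2. It was 0.00668 when WT replicate 1 was left out and 0.00674 when WT replicate 2 was. Each of these fits estimates the spread from the complete pair alone. No other gene of the 10 was above 10 CPM in both WT libraries except Dppa3, whose WT values differed 16.1-fold. The summed germ cell markers differed between the WT libraries in which Prdm14 was level, since that sum was 27.0 CPM in WT replicate 1 and 315 CPM in WT replicate 2.

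Prdm1, the repressor that sets germ cells apart from somatic cells, had the opposite order of labels but came from 1 library. Its model (ENSMUSG00000038151.13) spans chromosome 10 from 44437177 to 44528501 on the minus strand. Counts were 12 and 335 in the libraries labelled Rif1_KO, against 3 and 3 in those labelled WT. The levels were 0.904 and 17.8 CPM under the label Rif1_KO, against 0.276 and 0.323 CPM under the label WT. Rif1_KO replicate 2 was the high library, 19.6-fold above Rif1_KO replicate 1 (95% counting interval 11.1 to 38.4). The labels did not overlap, a separation with higher values under the label Rif1_KO that 21% of tested genes showed. The log2 fold change was 4.92 (SE 1.91) with an edgeR adjusted p of 0.577 and a DESeq2 adjusted p of 0.0529. Over summed counts the ratio of Rif1_KO to WT was 36.3 (95% counting interval 16.5 to 99.5). Without Rif1_KO replicate 2 the log2 fold change was 1.61. Prdm1 is also used in other embryonic tissues, among them epithelia, endoderm and cells of the limb and pharynx.

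Tfap2c, which encodes AP-2 gamma (ENSMUSG00000028640.11, chromosome 2, 172549593 to 172558622, plus strand), was low everywhere. It had 5 and 24 counts in the libraries labelled Rif1_KO, against 7 and 33 counts in those labelled WT. In CPM these were 0.377 and 1.27 under the label Rif1_KO, against 0.645 and 3.55 under the label WT. Replicate 2 was the higher library of each label and the labels overlapped. Its log2 fold change was -1.32 (SE 1.22), not called by edgeR (adjusted p of 0.82), and it was 0.36 without WT replicate 2. The 4 surface ectoderm markers Krt5, Krt14, Krt15 and Trp63, from a tissue in which Tfap2c is also active, were highest in WT replicate 2 as well. They summed to 1.05 and 0.795 CPM under the label Rif1_KO, against 1.29 and 54.1 CPM under the label WT. Their part in the level of Tfap2c was not tested.

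**Figure D2:**
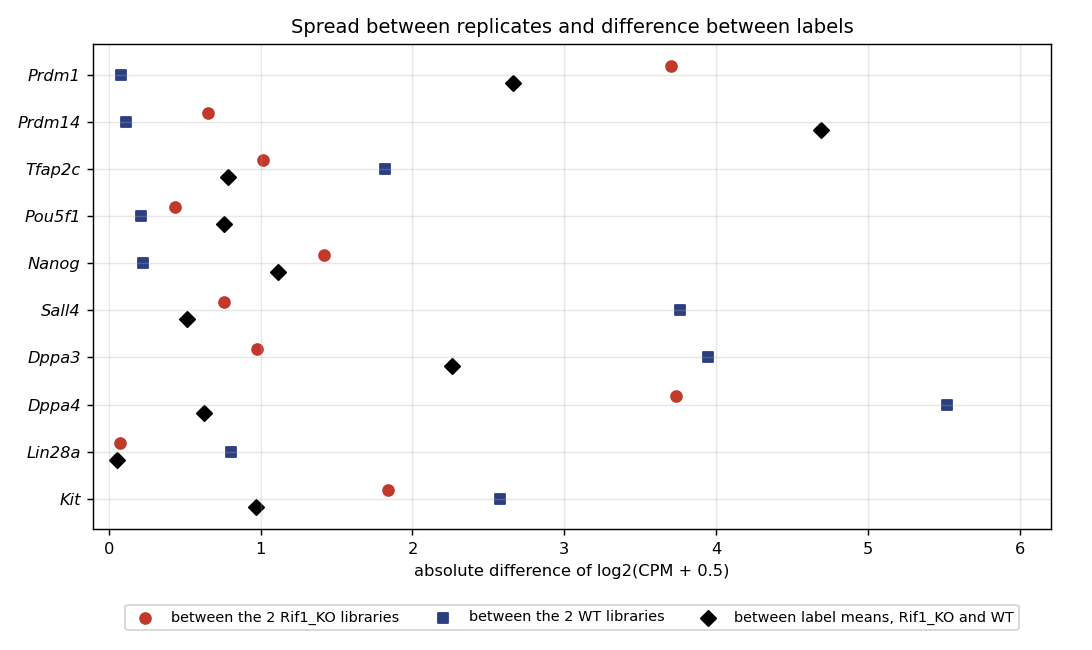
Absolute difference of log2(CPM + 0.5) for each regulator between the 2 libraries labelled Rif1_KO (red circles), between the 2 labelled WT (blue squares) and between the label means (black diamonds). In 8 of 10 genes a replicate pair lies further apart than the labels; Prdm14 and Pou5f1 are the exceptions.

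For most of these genes, as for most tested genes, the larger replicate difference exceeded the difference between label means. The comparison favours the replicate side, since it takes the larger of the replicate differences and sets single libraries against means. On the log2(CPM + 0.5) scale, 1 of the replicate pairs differed by more than the label means did for 8 of the 10 regulators and for 72.2% of tested genes. The median difference between replicates of the 10 was 0.99 under the label Rif1_KO and 1.32 under the label WT, against 0.73 and 1.01 over all tested genes. Dppa4 had the widest pair of the 10 under each label. Its replicate differences of 3.73 under the label Rif1_KO and 5.52 under the label WT exceeded those of 99% and 98.6% of tested genes. Prdm14 and Pou5f1 were the 2 genes whose label difference was the largest of the 3.

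The pluripotency factors Pou5f1 and Nanog were at the edge of detection in all or most libraries. Pou5f1 (ENSMUSG00000024406.16, chromosome 17, 35506018 to 35510772, plus strand) encodes OCT4, which germ cells need for survival. It had 4 and 11 counts in the libraries labelled Rif1_KO, against 13 and 9 counts in those labelled WT. These were 0.302 and 0.583 CPM under the label Rif1_KO and 1.20 and 0.967 CPM under the label WT. In CPM the labels did not overlap, as for 18% of the 45215 genes with any count in that direction, but the counts did overlap, and the counting interval of every library overlapped that of each other library. In WT replicate 2, where Dazl reached 1821 counts, Pou5f1 thus had 9. An antisense model, Gm19553, covers 14.1% of its exon bases, and fragments were counted without strand and for both genes where they overlap, so the counts of the pair cannot be told apart there. Gm19553 had 3 and 9 counts under the label Rif1_KO, against 0 and 6 under the label WT.

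Nanog, a homeobox factor of pluripotent cells (ENSMUSG00000012396.12, chromosome 6, 122707489 to 122714633, plus strand), had 9 and 50 counts in the libraries labelled Rif1_KO, against 5 and 3 counts in those labelled WT. Its level was 0.678 and 2.65 CPM under the label Rif1_KO, against 0.461 and 0.323 CPM under the label WT. Only Rif1_KO replicate 2, also the library highest in Prdm1, stood above the rest, and the intervals of the other 3 libraries overlapped. Higher values in both libraries labelled Rif1_KO were seen for 12.1% of those 45215 genes. In the fit without a filter on low counts its log2 fold change was 2.39 (SE 1.70), with an edgeR adjusted p of 0.881, and that of Pou5f1 was -0.95 (SE 1.496) with the same adjusted p. Of the 50-base stretches in Nanog transcripts, 4.61% also occur in transcripts of other genes, 55 in number. The largest match was the pseudogene Nanog-ps1, which had at most 1 count in a library. Smaller matches stood in abundant genes. Map1lc3b held 1.03% of the stretches and had 7374 and 8396 counts under the label Rif1_KO, against 8111 and 6318 under the label WT. The part of such shared sequence in the counts of Nanog was not tested.

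Sall4, a zinc finger factor that binds with OCT4 in pluripotent and germ cells (ENSMUSG00000027547.17, chromosome 2, 168748332 to 168767943, minus strand), followed WT replicate 2. It had 21 and 57 counts in the libraries labelled Rif1_KO, against 6 and 128 counts in those labelled WT. The levels were 1.58 and 3.02 CPM under the label Rif1_KO, against 0.553 and 13.8 CPM under the label WT. Both libraries labelled Rif1_KO lay between the WT libraries, which differed 24.9-fold (95% counting interval 11.1 to 69.1). The log2 fold change was -1.63 (SE 1.68), with an edgeR adjusted p of 0.841, and 2.05 without WT replicate 2. The antisense model Gm14261 covers 9.5% of its exon bases and had between 0 and 12 counts.

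Lin28a, an RNA-binding protein that blocks maturation of let-7 microRNAs and is needed for Prdm1 induction in mouse germ cell precursors (ENSMUSG00000050966.9, chromosome 4, 134003330 to 134018841, minus strand), was the flattest of the 10. It had 10 and 13 counts in the libraries labelled Rif1_KO, against 5 and 11 counts in those labelled WT. Levels of 0.754 and 0.689 CPM under the label Rif1_KO lay inside the range of 0.461 and 1.18 CPM under the label WT. Its log2 fold change was -0.18 (SE 0.92), with an edgeR adjusted p of 0.982, and DESeq2 gave it no adjusted p. The sign changed with upper-quartile factors, where the value was 0.09. The antisense model Gm13061 covers 5.86% of its exon bases, and the counts of the pair cannot be told apart there. Gm13061 had 3 and 0 counts under the label Rif1_KO, against 5 and 2 under the label WT.

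The developmental pluripotency-associated genes Dppa3 and Dppa4 were both highest in WT replicate 2. Dppa3 (Stella), a maternal and germ cell factor that protects DNA methylation in the zygote (ENSMUSG00000046323.8, chromosome 6, 122626410 to 122630272, plus strand), had the highest level per length of the 10 in every library. It had 157 and 109 counts in the libraries labelled Rif1_KO, against 111 and 1532 counts in those labelled WT. The levels were 11.8 and 5.78 CPM under the label Rif1_KO, against 10.2 and 165 CPM under the label WT. WT replicate 2 was 16.1-fold above WT replicate 1 (95% counting interval 13.3 to 19.7), and WT replicate 1 lay between the libraries labelled Rif1_KO. The means were 8.80 ± 4.28 CPM under the label Rif1_KO and 87.5 ± 109 CPM under the label WT (SD, n = 2 each). The log2 fold change was -3.31 (SE 1.27), with an edgeR adjusted p of 0.577 and a DESeq2 adjusted p of 0.108. Leaving out WT replicate 2 gave a log2 fold change of -0.21 (edgeR adjusted p of 0.96), and leaving out WT replicate 1 gave -4.18 (edgeR adjusted p of 2.71e-08). The value was -3.80 without Rif1_KO replicate 1 (edgeR adjusted p of 0.86) and -2.80 without Rif1_KO replicate 2 (edgeR adjusted p of 0.969). The pseudogene Dppa3-ps, which shares 16% of the 50-base stretches of Dppa3, had 1 count in all, in WT replicate 2.

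Dppa4, a chromatin protein with a SAP domain (ENSMUSG00000058550.14, chromosome 16, 48283735 to 48294292, plus strand), was present in 1 library of each label and nearly absent in the other. It had 119 and 4 counts in the libraries labelled Rif1_KO, against 1 and 248 counts in those labelled WT. In CPM these were 8.97 and 0.212 under the label Rif1_KO, against 0.0921 and 26.7 under the label WT. Rif1_KO replicate 1 was 42.3-fold above Rif1_KO replicate 2 (95% counting interval 16.1 to 158). WT replicate 2 was 289-fold above the single count of WT replicate 1, with a counting interval that begins at 51.5. The log2 fold change was -1.54 (SE 2.37), with an edgeR adjusted p of 0.905, and it ranged from -5.80 to 5.52 with 1 library left out. The highest of these values was without WT replicate 2 and the lowest without Rif1_KO replicate 1. Transcripts of Gm14058 and Gm5501 hold 22.4% and 10.6% of its 50-base stretches; neither had more than 6 counts in a library.

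Kit, the receptor tyrosine kinase through which germ cells sense Kit ligand (ENSMUSG00000005672.12, chromosome 5, 75574916 to 75656722, plus strand), was highest under the label Rif1_KO but overlapped between labels. It had 153 and 54 counts in the libraries labelled Rif1_KO, against 9 and 69 counts in those labelled WT. The levels were 11.5 and 2.86 CPM under the label Rif1_KO, against 0.829 and 7.42 CPM under the label WT. Its log2 fold change was 0.80 (SE 1.56), with an edgeR adjusted p of 0.936, and it was 3.11 without WT replicate 2 and -0.41 without Rif1_KO replicate 1. Kit ligand (Kitl), made by gonadal somatic cells, was abundant, with 419 and 392.4 CPM in the libraries labelled Rif1_KO, against 344 and 208 CPM in those labelled WT (edgeR adjusted p of 0.717). Kit is also a receptor of mast cells, melanoblasts and blood progenitors. Leukocyte and mast cell markers (9 genes) summed to 9.87 and 3.55 CPM under the label Rif1_KO, against 44.0 and 19.7 CPM under the label WT. Of these, Mcpt4 had at most 1 count in a library. Cpa3 had 50 and 0 counts under the label Rif1_KO, against 250 and 3 counts under the label WT, and Cma1 had 1 and 1 counts under the label Rif1_KO, against 199 and 2 counts under the label WT. Fcer1g had 50 and 1 counts under the label Rif1_KO, against 1 and 0 counts under the label WT. Kit was lowest in WT replicate 1, where Cpa3 and Cma1 were highest, and highest in Rif1_KO replicate 1, where Fcer1g was highest and Cpa3 second. Melanoblast markers (5 genes) summed to 14.9 and 30.7 CPM under the label Rif1_KO, against 9.21 and 44.3 CPM under the label WT. Most of that sum was Dct, while Tyrp1, Pmel and Sox10 had fewer than 10 counts in every library. The part of these cells in the level of Kit was not tested.

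Among the 10 regulators the order of levels was set per length, as CPM per kilobase of merged exons. Dppa3 led with a mean over the 4 libraries of 54.0, followed by Dppa4 at 5.86 and Prdm14 at 3.79. Prdm1 (0.863), Sall4 (0.854), Kit (0.635), Nanog (0.458), Tfap2c (0.397), Pou5f1 (0.339) and Lin28a (0.193) came after them. Dppa3 exceeded 97.9% of tested genes in WT replicate 2 on this scale, but 69.4% in Rif1_KO replicate 2. Pou5f1 exceeded 8.17% and 14.1% of tested genes under the label Rif1_KO, against 34.4% and 32.6% under the label WT. The places of Dppa4, Prdm14 and Prdm1 differ from library to library: Prdm14 stood above Dppa4 in WT replicate 1 and below it in the other 3 libraries. Neighbours from Prdm1 to Lin28a differ by less than their spread over the libraries.

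The library in which each gene was highest differed among the 10. WT replicate 2 was highest for 5 genes (Tfap2c, Sall4, Dppa3, Dppa4 and Lin28a), Rif1_KO replicate 2 for Prdm1 and Nanog, WT replicate 1 for Prdm14 and Pou5f1, and Rif1_KO replicate 1 for Kit. Over all tested genes, the highest library was Rif1_KO replicate 1 for 23%, Rif1_KO replicate 2 for 19.2%, WT replicate 1 for 28.2% and WT replicate 2 for 29.6%. The 3 tested genes nearest to the median profile of the 8 tested regulators, by Euclidean distance of centred log2(CPM + 1) over the 4 libraries, were Gm9311, Gm24000 and 9230104M06Rik, at distances of 0.20, 0.21 and 0.23. All 3 were at 5.27 CPM or less in every library. The part of low counts in this likeness was not tested.

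**Figure D3:**
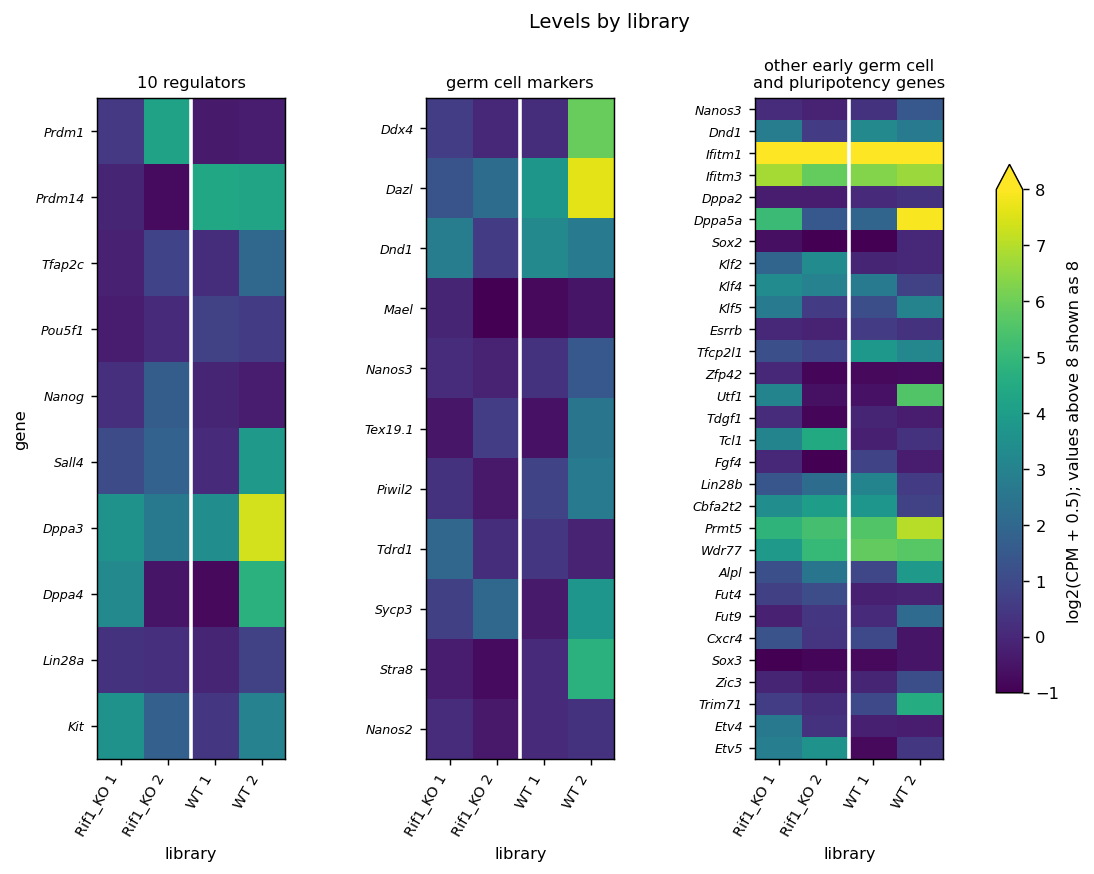
Levels as log2(CPM + 0.5) in each library for the 10 regulators, the 11 germ cell markers and 30 other early germ cell and pluripotency genes; columns are libraries, labelled Rif1_KO left of the white line and WT right of it. Dppa3, Ddx4, Dazl, Stra8 and Dppa5a are brightest in WT replicate 2, while Prdm14 is bright in both WT libraries.

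Other genes of the early germ cell programme were read from a list of 30, of which 21 were tested. None passed the edgeR test in either direction, and at an unadjusted p under 0.05 there were 0 lower and 3 higher under the label Rif1_KO. Over all tested genes these shares were 3.05% and 5.35%. The median log2 fold change of the 21 was -0.43. The genes with the smallest p were Tcl1, Klf2, Etv5 and Etv4. Tcl1 had 7.84 and 21.5 CPM under the label Rif1_KO, against 0.369 and 0.752 CPM under the label WT (edgeR adjusted p of 0.571). Klf2, a Krüppel-like factor of naive pluripotent cells, had 3.32 and 9.70 CPM under the label Rif1_KO, against 0.461 and 0.538 CPM under the label WT (edgeR adjusted p of 0.577). Etv5, an ETS factor downstream of growth factor signals, had 6.78 and 11.7 CPM under the label Rif1_KO, against 0.0921 and 0.86 CPM under the label WT (edgeR adjusted p of 0.577). The labels did not overlap for Tcl1, Klf2 or Etv5, a separation with higher values under the label Rif1_KO that 21% of tested genes showed. The next 3 genes were chosen after their values were seen. Sox2, which mouse germ cells share with pluripotent cells, had 2 and 0 counts under the label Rif1_KO, against 0 and 5 counts under the label WT, and Nanos3, a germ cell RNA-binding protein, had 8 and 8 counts under the label Rif1_KO, against 8 and 21 counts under the label WT. Ifitm3 (fragilis), a membrane protein of early germ cells that somatic cells also make, was level at 111 and 58.1 CPM under the label Rif1_KO, against 79.1 and 99.4 CPM under the label WT.

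The signals that induce germ cells were read from a list of 13 genes, 9 of them tested. None was called by edgeR, and the median log2 fold change was 0.08. At an unadjusted p under 0.05, 0 were lower and 1 was higher, where 3.05% and 5.35% of all tested genes were. That gene was Smad4, the common mediator of BMP signals, with 58.0 and 53.9 CPM in the libraries labelled Rif1_KO, against 12.6 and 6.34 CPM in those labelled WT (edgeR adjusted p of 0.571). The untested epiblast and mesoderm genes T, Eomes, Otx2 and Wnt3 had 7 counts or fewer in every library. Of the 12 genes for Kit ligand and its signalling, 11 were tested and 0 called, with a median log2 fold change of 0.56. At an unadjusted p under 0.05, 0 were lower and 1 was higher, the kinase gene Lyn, with 1.28 and 5.14 CPM under the label Rif1_KO, against 0.369 and 0.43 CPM under the label WT (edgeR adjusted p of 0.585).

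**Figure D4:**
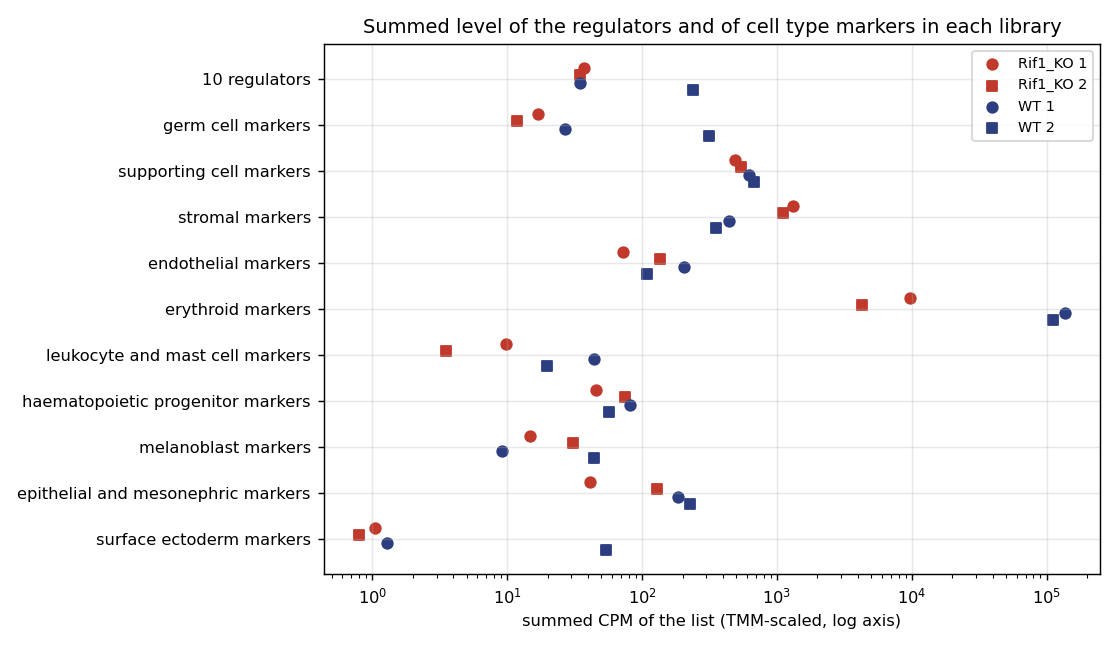
Summed CPM (log axis) of the 10 regulators and of marker lists for germ cells and other cell types in each library; red marks the label Rif1_KO and blue the label WT, circles are replicate 1 and squares replicate 2. The regulators, germ cell markers and surface ectoderm markers stand out in WT replicate 2, erythroid markers are lower and stromal markers higher under the label Rif1_KO.

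Markers of other cells also differed between the libraries. Erythroid markers (11 genes) summed to 9786 and 4269 CPM under the label Rif1_KO, against 137300 and 112000 CPM under the label WT. Stromal markers (8 genes) summed to 1317 and 1103 CPM under the label Rif1_KO, against 440 and 352 CPM under the label WT. Supporting cell markers (10 genes) summed to 486 and 543 CPM under the label Rif1_KO, against 618 and 676 CPM under the label WT. The sums of all 3 lists separate the labels, as Prdm14 does, but that of the stromal list does so in the opposite direction. Those of the germ cell, surface ectoderm, leukocyte and mast cell, and epithelial and mesonephric lists do so too, all lower under the label Rif1_KO. The part of any of these lists in the level of Prdm14 was not tested. Of the 10 supporting cell markers, 3 were lower under the label Rif1_KO without overlap and 1 was higher. Over the 45215 genes with any count these shares were 18% and 12.1%. The marker that was higher was Sox9, with 29.9 and 31.8 CPM under the label Rif1_KO, against 7.74 and 18.9 CPM under the label WT. Single supporting cell markers differed more between the WT libraries than the sum of their list. Sox9, Nr5a1 and Fst were named after their values were seen. Nr5a1 had 24.7 and 22.2 CPM under the label Rif1_KO, against 60.1 and 7.52 CPM under the label WT, and Fst had 172 and 128 CPM under the label Rif1_KO, against 161 and 323 CPM under the label WT. In every library the erythroid, stromal and supporting cell sums exceeded the 11.9 to 315 CPM of the germ cell list. Epithelial and mesonephric markers summed to 40.9 and 129 CPM under the label Rif1_KO, against 185 and 227 CPM under the label WT. Endothelial and blood progenitor lists summed to between 45.8 and 204 CPM in each library.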

How the data were processed

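RNA-seq counts per gene were analysed for 4 libraries, 2 labelled Rif1_KO and 2 labelled WT; groups and replicate numbers came from the sample titles. Per the file headers, the deposited counts were made by the authors with featureCounts 1.6.2 on GENCODE M17, in paired mode with a minimum mapping quality of 30, no strand option and no normalization. A fragment that met this quality was counted for each gene it overlapped and at each of its alignments, so genes that overlap can share counts. Fragments from sequence shared between genes may instead have been left out by the quality limit, which was not tested. The submitters' processing notes name HISAT2, SAMtools, Trim Galore and FastQC, and the build mm10. Gene lengths are the merged exon lengths the authors deposited. Of 53715 gene identifiers, 95 had no symbol in the reference table.

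Genes were kept with filterByExpr (minimum count 10) and tested with edgeR 4.0.16 (quasi-likelihood, TMM, no covariate) in R 4.3.3; log2 fold changes are Rif1_KO over WT and SE was obtained as the absolute log2 fold change over the root of the F statistic. CPM uses the TMM-scaled total of tested genes. Intervals are 95% Clopper-Pearson, or exact binomial for ratios of counts, and cover counting error only, since reads carry no molecular identifiers. The floor is 3 counts. Alternatives were RLE and upper-quartile factors, other filters, DESeq2 1.42.0, limma-voom 3.58.1, omission of haemoglobin, mitochondrial and rRNA-region genes, of each library in turn, and a replicate block. Steps were tested on simulated counts. Replicate counts differed beyond sampling noise, with chi-square values per degree of freedom of 86.6 for Rif1_KO and 107 for WT. The regulators and gene lists were chosen with earlier results of these data known. All 10 regulators are named, with the genes of the smallest p (at most 4) or the defining markers of each other list; likeness names the 3 nearest profiles. Further genes are said to be chosen after their values were seen.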

Additional observations from a re-analysis of the deposited data

How the results depend on the processing

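The count of regulators called stayed at 0 in both directions with RLE and upper-quartile factors, without a filter on low counts, with a minimum count of 50, with limma-voom, without haemoglobin, mitochondrial and rRNA-region genes and with the replicate block. DESeq2 called 1 lower (Prdm14), and with 1 library left out 0 to 2 were lower and 0 higher. Genes called lower over the whole table numbered 2 as reported, and 0 with upper-quartile factors and with a minimum count of 50. Leaving out the abundant genes also gave 0, but this setting removes Hba-a1 and Hba-a2, the 2 genes reported. The loss of these 2 calls was therefore fixed in advance. There were 36 genes called lower without a filter (and 18 higher) and 192 with DESeq2 (and 329 higher). With 1 library left out 5 to 653 were lower and 0 to 692 higher, with the spread estimated from the complete pair alone. The median log2 fold change of the tested regulators ranged from -2.04 to 1.24 with 1 library left out, and from -2.50 to -0.38 under the other settings. That of all tested genes was 0.164 with upper-quartile factors, 0.076 with limma-voom and 0.075 with the replicate block, and -0.18 to 0.32 with 1 library left out; fold changes are read relative to it. Lin28a changed sign with upper-quartile factors (0.09) and without a filter (0.14). With 1 library left out, log2 fold changes ranged from -0.66 to 0.64 for Lin28a, -2.36 to 0.36 for Tfap2c, -2.53 to 2.05 for Sall4, -5.80 to 5.52 for Dppa4 and -0.41 to 3.11 for Kit, while Prdm14, Prdm1 and Dppa3 kept their sign in all settings that gave a value. The cause of these changes was not tested. Lin28a, Tfap2c, Sall4 and Prdm1 did not pass the minimum count of 50, and Lin28a gave no value without the abundant genes. The replicate block, which pairs libraries by number, called 7 genes lower and no regulator. The differences of replicate 1 from replicate 2 under the 2 labels had a Pearson r of -0.0234 across genes, which gives no sign of pairing by number. A shared effect that is small beside the replicate spread would not be seen in this way. Counting error is wide where counts are few, and 16 of the 40 values of the regulators rested on fewer than 10 counts.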

Other observations

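Dppa5a and Utf1, outside the 10 and named here after their values were seen, shared the 2 highest libraries with Dppa4. For Dppa5a, an RNA-binding protein of pluripotent and germ cells, levels were 34.4 and 2.28 CPM in the libraries labelled Rif1_KO, against 3.32 and 241 CPM in those labelled WT. Utf1, a chromatin factor of pluripotent cells, had 7.76 and 0.159 CPM under the label Rif1_KO, against 0.184 and 46.8 CPM under the label WT. In both genes, as in Dppa4, WT replicate 2 was highest and Rif1_KO replicate 1 second. Their counts in Rif1_KO replicate 1 were 457 and 103, beside 119 for Dppa4, while Ddx4 had 14 and Dazl 27 there. Neither gene was called by edgeR (adjusted p of 0.742 for Dppa5a and 0.824 for Utf1).

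Trim71, a let-7 target gene of early germ cells, had 1.05 and 0.636 CPM under the label Rif1_KO, against 1.47 and 23.5 CPM under the label WT, and Stra8, a gene of entry into meiosis, had 0.302 and 0.106 CPM under the label Rif1_KO, against 0.553 and 26.2 CPM under the label WT. Trim71 and Stra8 were high in WT replicate 2 alone. These 2 genes and Tfcp2l1 were also named after their values were seen. Tfcp2l1, a pluripotency factor, separated the labels in the direction of Prdm14, with 1.81 and 1.27 CPM under the label Rif1_KO, against 13.4 and 8.38 CPM under the label WT. It was not called by edgeR (adjusted p of 0.632). Of the 21 tested genes of its list, 4 separated the labels in that direction and 6 in the other. Over all tested genes the shares were 18.4% lower and 21% higher.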
